A study of Mus musculus with 16 samples.

Results

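The genes described here are 7 members of the membrane-spanning 4-domain subfamily A of the mouse, Ms4a4a, Ms4a4b, Ms4a4c, Ms4a6b, Ms4a6c, Ms4a6d and Ms4a7. They were taken by symbol from the 55385 genes of a bulk RNA-seq count table, with no use of their values. All 7 of the 7 passed the filter on low counts that left 14513 genes for testing. The libraries were made from CD11b+ cells bound to magnetic beads, taken from the perfused brains of untreated female mice at 20 weeks of age from which meninges and choroid plexus were first taken away. WT mice carried neither the 5xFAD transgenes nor a Card9 deletion, and Card9-/- mice lacked Card9 in all tissues. The 5xFAD mice carried the transgenes of the 5xFAD model of amyloid pathology, which are expressed in neurons, and Card9-/-5xFAD mice carried both the transgenes and the deletion. Each genotype had 4 libraries, 16 in all. The labels do not say that the 4 came from separate mice, so the p-values measure the spread between these libraries, which may be in part technical.

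MS4A proteins cross the membrane 4 times and are related to CD20, the B cell antigen encoded by Ms4a1. Several of them sit beside receptors of myeloid cells and alter their signalling, and MS4A4A in macrophages associates with Dectin-1, the beta-glucan receptor encoded by Clec7a that signals through SYK to CARD9. The human MS4A locus is a risk locus for Alzheimer's disease and has been linked to the level of soluble TREM2.

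Library depth ran from 2970148 to 19333325 counts. Card9, the targeted gene, was counted in all 16 libraries, at 13.6 to 51.3 CPM in WT (counts relative to the scaled library size), 16.7 to 34.8 in the libraries labelled Card9-/-, 15.6 to 33.5 in 5xFAD and 9.73 to 33.7 in those labelled Card9-/-5xFAD. Its mean over both deletion labels was not called lower (log2 fold change -0.39 ± 0.32 SE, adjusted p = 0.678, edgeR's quasi-likelihood test with Benjamini-Hochberg adjustment). The exons removed by the deletion are not given in the sources used here, so these counts neither check the labels nor set them aside, and every Card9 direction below is that of the libraries as labelled. The 10 microglia markers, P2ry12 and Tmem119 among them, were counted in every library. Their summed level was 22709.7 to 37332.5 CPM in 12 libraries and 14092.7 to 16340.9 CPM in the other 4, which were WT replicate 1, Card9-/- replicate 4, 5xFAD replicate 1 and Card9-/-5xFAD replicate 4. These 4, 1 of each genotype, also had the highest sums of 8 neutrophil markers and of 12 interferon-induced genes within their genotype. Within it they had the lowest sums of B cell and of dendritic cell markers. Where the members called, or their count at an unadjusted p under 0.05, changed without these 4, both are given.

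The 7 members lie together on chromosome 19 (chr19:11321039-11604849, GRCm38), inside a cluster of 19 Ms4a genes that spans chr19:10962293-11640851. Ms4a7 is the first of them and is read on the minus strand. Ms4a4a, Ms4a4c, Ms4a4b, Ms4a6c and Ms4a6b follow on the plus strand, and Ms4a6d closes the block on the minus strand. Only Ms4a4d lies between members without being one of them, and it had at most 4 counts in any library.

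Promoter windows from RefSeq on GRCm38.p6 (250 bases before to 50 after a start) were found for 6 of the 7 members, in 7 windows, Ms4a7 having 2 starts. Ms4a6d had no window. The letters GAAANNGAA, the core of the interferon-stimulated response element, occurred on either strand in 4 of the 7 member windows and in 8.56% of 32851 mouse promoter windows. TGANTCA, a loose form of the AP-1 site that allows any middle base, occurred in 2 of the 7 and in 7.81% of all windows. It was TGAATCA in Ms4a4b and TGATTCA in the Ms4a7 window that is not shown. Neither has the C or G that the usual AP-1 site holds in the middle. GAGGAAG, 1 form of a PU.1 site, was in 13.6% of all windows and the E-box CACGTG in 7.15%, and neither was in a member window. Other forms of a PU.1 site were not counted, and the shorter GAGGAA does occur in member windows, those of Ms4a4b and Ms4a4c among them. The 250 bases before the start are shown for the 3 members that hold the interferon letters, which are in capitals. The choice of these windows was made after the levels were seen, and the part of the letters in the levels was not tested. Ms4a6b is at chr19:11518309-11518558 (plus strand), Ms4a6c at chr19:11469118-11469367 (plus strand) and Ms4a7 at chr19:11336147-11336396 (minus strand).
Ms4a6b: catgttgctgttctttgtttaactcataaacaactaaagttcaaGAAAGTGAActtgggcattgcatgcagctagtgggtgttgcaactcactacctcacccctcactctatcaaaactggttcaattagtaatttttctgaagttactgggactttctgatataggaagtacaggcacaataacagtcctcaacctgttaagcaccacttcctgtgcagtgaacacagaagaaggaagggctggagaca
Ms4a6c: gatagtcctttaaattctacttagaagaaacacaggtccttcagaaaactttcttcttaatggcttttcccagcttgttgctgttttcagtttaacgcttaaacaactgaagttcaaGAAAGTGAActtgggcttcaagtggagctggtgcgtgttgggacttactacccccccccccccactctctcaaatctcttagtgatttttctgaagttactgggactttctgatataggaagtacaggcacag
Ms4a7: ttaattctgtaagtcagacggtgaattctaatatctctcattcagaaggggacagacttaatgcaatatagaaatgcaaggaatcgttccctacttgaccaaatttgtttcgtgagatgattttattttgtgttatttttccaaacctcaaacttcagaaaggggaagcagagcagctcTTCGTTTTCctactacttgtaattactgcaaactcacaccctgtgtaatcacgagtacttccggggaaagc
The Ms4a6b and Ms4a6c sequences share an unbroken run of 48 bases, the longest between any of the 7 windows. The run lies nearer the start than the capitals. In Ms4a7 the capitals are the reverse complement of the motif. A match is a string of letters, not a site shown to be used.

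Counting limits differ between members. Ms4a6c shares 51.4% of its 50-base stretches with other annotated genes, 993 of the 1028 shared with BE692007, a gene on the other strand that overlaps 1088 of its exonic bases. Whether the counts used strand is not given in the sources used here, so reads of the pair cannot be told apart. BE692007 itself was given 15 to 208 counts a library, against 391 to 1712 for Ms4a6c. The shared portion was 8.19% for Ms4a4c, 3.57% for Ms4a6b, 2.54% for Ms4a6d, 2.40% for Ms4a4b, 0.306% for Ms4a7 and 0 for Ms4a4a.

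Ms4a6d had the highest level per length and Ms4a4b the lowest. On the scale of CPM per kilobase of exon, the mean level over the 16 libraries was 129 ± 54.6 (SD) for Ms4a6d, 79.0 ± 35.4 for Ms4a4a, 60.0 ± 32.8 for Ms4a6c, 46.2 ± 16.6 for Ms4a6b and 36.1 ± 14.9 for Ms4a7. The level was 13.4 ± 7.11 for Ms4a4c and 1.06 ± 0.749 for Ms4a4b. Ms4a4c stood above Ms4a4b in 16 of 16 libraries, Ms4a7 above Ms4a4c in 15 and Ms4a6d above Ms4a4a in 14. Neighbours in the middle overlapped in spread, Ms4a4a standing above Ms4a6c in 12 libraries and Ms4a6c above Ms4a6b in 10. With the mean length of coding transcripts in place of all exons, Ms4a7 moved to the second place (150.0 CPM per kilobase) behind Ms4a6d (214), and Ms4a4c and Ms4a4b stayed last. In the 12 libraries of higher microglia marker level the order began with Ms4a6d (144 ± 44.8) and Ms4a4a (90.4 ± 33.2), and in the other 4 with Ms4a6c (103 ± 34.7).

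**Figure D1:**
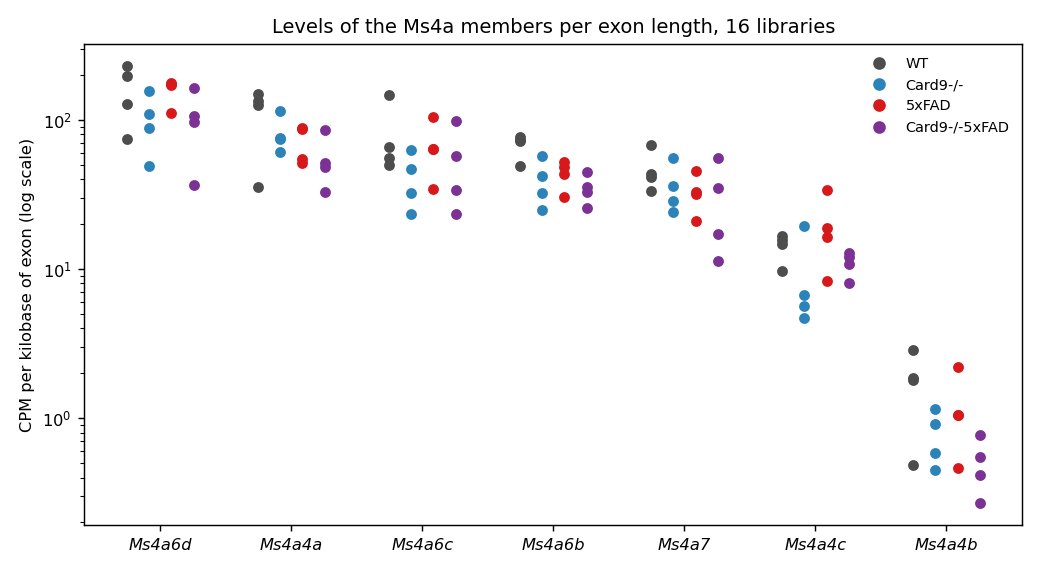
CPM per kilobase of exon (log scale) of the 7 members, ordered by their mean, with 1 point per library coloured by genotype. Ms4a6d (mean 129) stands highest and Ms4a4b (mean 1.06) lowest, and the genotypes overlap within each gene.

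Ms4a7 encodes an MS4A protein of tissue macrophages and is widely used as a marker of border-associated macrophages. In WT it was at 301, 192, 185 and 149 CPM in replicates 1 to 4, and in 5xFAD at 200.5, 146, 143 and 93.0. In the libraries labelled Card9-/- it was at 128, 106, 160.1 and 245 CPM, and in those labelled Card9-/-5xFAD at 50.3, 76.6, 155 and 246. The ranges of all 4 genotypes overlapped, and the highest library of each was the one with the lowest microglia marker sum. Its log2 fold change was -0.51 ± 0.44 SE in 5xFAD against WT and -0.28 ± 0.44 in Card9-/-5xFAD against Card9-/-.

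Ms4a6c is a myeloid member that is high in monocytes. Its levels were 301, 114, 135 and 102 CPM in WT and 214, 130.5, 130.2 and 70.3 in 5xFAD. They were 66.0, 47.8, 95.4 and 128 CPM in Card9-/- and 48.1, 69.4, 118 and 199.8 in Card9-/-5xFAD. The same 4 libraries that were highest for Ms4a7 were highest here, and the genotypes again overlapped. The direction under the transgenes was lower with Card9 intact (log2 fold change -0.26 ± 0.48 SE) and higher under the deletion label (0.37 ± 0.48). These 2 values differed by 0.63 ± 0.68, with a 95% interval from -0.82 to 2.07.

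Ms4a4a is the nearest mouse relative of human MS4A4A, a gene of the risk locus, and is expressed by macrophages and microglia. It was at 29.8, 105, 124 and 111 CPM in WT and at 42.8, 72.4, 73.0 and 45.9 in 5xFAD. It was at 63.4, 62.1, 95.4 and 51.0 CPM in Card9-/- and at 42.8, 40.0, 70.9 and 27.2 in Card9-/-5xFAD. Replicate 1 of WT stood far below the other 3 and was what made WT overlap with both transgenic genotypes. The mean over the 8 libraries with transgenes was 51.9 ± 17.6 CPM (SD), against 80.3 ± 33.2 in the 8 without.

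Ms4a6d is a myeloid member that is expressed by macrophages and microglia. It was at 129, 343, 399 and 222 CPM in WT and at 301, 298, 306 and 192 in 5xFAD. It was at 189, 152, 271 and 85.1 CPM in Card9-/- and at 167, 183, 282 and 63.7 in Card9-/-5xFAD. The transgenes left its group means almost level, 273 against 274 CPM with Card9 intact and 174 against 174 under the deletion label. The 95% intervals of both transgene contrasts were wide, running from -0.94 to 0.95 and from -0.95 to 0.94 on the log2 scale.

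Ms4a6b, known as a regulator of T cells and also found in myeloid cells, had its highest mean in WT (303 ± 56.9 CPM, SD, n = 4). It was at 326, 322, 345 and 219 CPM in WT and at 235, 195, 215 and 137 in 5xFAD. It was at 188, 146, 257 and 111 CPM in Card9-/- and at 115, 146, 201 and 158 in Card9-/-5xFAD. Of the 4 WT libraries 3 were above every library of the other genotypes, and replicate 4 lay among them. Its change in 5xFAD against WT was -0.63 ± 0.30 SE on the log2 scale, with a 95% interval from -1.27 to 0.0045.

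Ms4a4c is a member of monocytes and activated lymphocytes that interferon is known to induce. It was at 25.9, 29.3, 27.5 and 17.0 CPM in WT and at 58.8, 28.5, 32.7 and 14.6 in 5xFAD. It was at 11.8, 9.89, 34.2 and 8.18 CPM in Card9-/- and at 21.2, 22.4, 18.9 and 14.0 in Card9-/-5xFAD. The 5xFAD libraries both held the highest value, in replicate 1, and overlapped with WT. Ms4a4c was the member with a higher transgene value under both Card9 labels (log2 fold changes 0.43 ± 0.45 SE and 0.25 ± 0.45), neither past the threshold. The first fell to 0.025 without 5xFAD replicate 1, and the second to 0.043 without Card9-/- replicate 4. Without the 4 libraries of low microglia marker level they were 0.076 ± 0.44 and 0.18 ± 0.44. Of the 12 interferon-induced genes, 12 also had higher values in the averaged transgene contrast and 4 were called higher by edgeR, Isg15, Oasl2, Usp18 and Bst2. In that contrast 61.7% of all tested genes had lower values, and edgeR called 11.3% in either direction. In the 4 libraries with the highest interferon-induced sum of their genotype, Ms4a4c was the highest of its genotype in 1 and the lowest in 2. The part of interferon-induced genes in the Ms4a4c values was not tested.

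Ms4a4b is a member of T and NK cells. It was at 25.0, 15.9, 16.3 and 4.28 CPM in WT and at 19.4, 9.18, 9.17 and 4.09 in 5xFAD. It was at 5.16, 3.97, 8.06 and 10.1 CPM in Card9-/- and at 2.37, 3.65, 6.78 and 4.81 in Card9-/-5xFAD. Of the 8 Card9-intact libraries 4, among them 3 of WT, stood above every deletion-labelled library, and the other 4 lay within their range. The mean was 12.9 ± 7.46 CPM (SD) over the 8 Card9-intact libraries and 5.62 ± 2.56 over the 8 labelled as deleted.

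**Figure D2:**
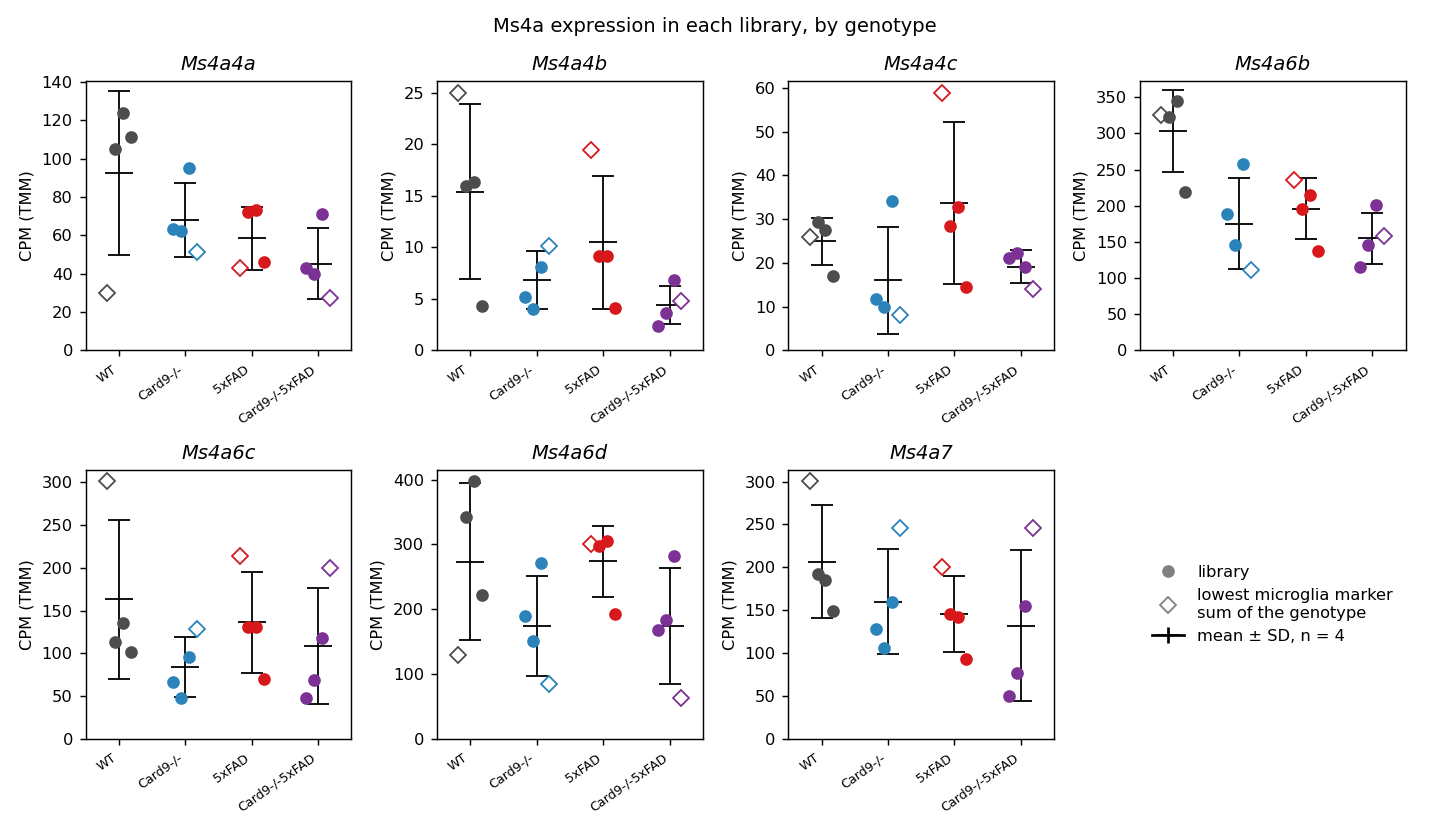
CPM of each of the 7 members in each of the 16 libraries, by genotype (replicates 1 to 4 from left to right), with the mean and SD of 4 as black bars. White diamonds are the library of lowest microglia marker sum in each genotype: they are the highest of their genotype for Ms4a6c and Ms4a7 and the lowest for Ms4a4a in 4 of 4 genotypes.

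The transgene comparisons ask how the family responds to amyloid pathology with and without Card9. No member was called at an adjusted p under 0.1 (edgeR's quasi-likelihood test with Benjamini-Hochberg adjustment), 0 of 7 in 5xFAD against WT, where 2.09% of the 14513 tested genes were called, and 0 of 7 in Card9-/-5xFAD against Card9-/-, where 1.97% were. No member had an unadjusted p under 0.05 in either, and DESeq2 called 0 of 7 in both. Without the 4 libraries of low microglia marker level, 2 of 7 had such an edgeR p in 5xFAD against WT, Ms4a4a (log2 fold change -0.79 ± 0.28 SE) and Ms4a6b (-0.66 ± 0.29), beside 21.1% of all genes, and none of the 7 was called. Without these 4 libraries, 6 and 4 of 7 members had lower values with the transgenes in the 2 comparisons, beside 56.0% and 54.4% of all genes. With all 16 libraries 5 of 7 did in each, beside 61.1% and 60.6% of all tested genes. In the second comparison the 5 include Ms4a6d, whose value of -0.00099 was near 0. The median log2 fold change of the members was -0.51 and -0.18, and that of all genes -0.15 in both. No member had groups that did not overlap, as 8.04% and 7.01% of all genes did. The lowest adjusted p was 0.464, for Ms4a6b in 5xFAD against WT.

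Averaged over both Card9 labels, with 8 libraries against 8, Ms4a4a was the member with an unadjusted p under 0.05. Its log2 fold change was -0.62 ± 0.28 SE, a level of 0.649 (95% interval 0.429 to 0.981) of that without the transgenes, with an adjusted p of 0.197 by edgeR's quasi-likelihood test with Benjamini-Hochberg adjustment. It was thus 1 of the 7 with such a p, beside 22.8% of all tested genes. By edgeR and by DESeq2 0 of the 7 were called, where edgeR called 11.3% of all genes. Without WT replicate 1 the call changed, with a log2 fold change of -0.77 ± 0.23 and an adjusted p of 0.0481 by the same edgeR test, in a fit that called 14.3% of all genes. Without the 4 libraries of low microglia marker level the same edgeR test called 2 of 7, Ms4a4a (-0.65 ± 0.20, adjusted p = 0.0321) and Ms4a6b (-0.49 ± 0.21, adjusted p = 0.0952), in a fit that called 34.5% of all genes. With library totals and no scaling factors it also called 2 of 7, Ms4a4a (-0.86) and Ms4a6b (-0.65), with 22.5% of all genes called and the median of all genes lower by 0.24 on the log2 scale. Relative to that median both members still had lower values. Over 23 alternatives the adjusted p of Ms4a4a from edgeR and DESeq2 ran from 0.0321 to 0.507, and its log2 fold change was below 0 in all 23.

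Beside these values, markers of several other cell types were lower with the transgenes. Of 10 border-associated macrophage markers, all tested and none at 0 in any library, 7 were called lower by edgeR in the averaged contrast, Mrc1, Cd163, Lyve1, F13a1, Clec10a, Stab1 and Siglec1. Their summed level was 1168.6 to 1960.8 CPM in the 8 libraries without transgenes, and 602.6 to 1792.1 in the 8 with them. Also called lower were 3 of 6 tested dendritic cell markers (Zbtb46, Itgae and Ccr7), 2 of 8 neutrophil markers (Ly6g and Mmp8), 1 of 8 monocyte markers (Ccr2) and 1 of 7 T and NK cell markers (Prf1). Values were lower for 5 of 6, 8 of 8, 8 of 8 and 7 of 7 of these lists. Of all tested genes, 61.7% had lower values in this contrast, and edgeR called 11.3% in either direction. The part of such cells in the Ms4a values was not tested. In bulk samples, fewer cells of a type and less RNA per cell cannot be told apart.

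The Card9 comparisons ask whether the deletion alters the family in health and in disease. All 7 of the 7 members had lower values in the libraries labelled Card9-/- than in WT, and all 7 in those labelled Card9-/-5xFAD than in 5xFAD, beside 40.5% and 38.0% of all tested genes. In the second comparison Ms4a7 had a higher value in 3 of 25 alternatives, at 0.11, 0.0318 and 0.0245 on the log2 scale without Card9-/-5xFAD replicate 1, 5xFAD replicate 1 and Card9-/-5xFAD replicate 2, which leaves 6 of 7 lower. The median member log2 fold change was -0.65 and -0.37, against 0.11 and 0.14 for all genes. Adjustment over all genes left 0 of 7 called in either, by edgeR's quasi-likelihood test with Benjamini-Hochberg adjustment or by DESeq2, where edgeR called 0% of all genes in both, DESeq2 5 and 2 genes, and 597 and 366 genes had an unadjusted edgeR p under 0.05. Among the members 2 had such a p in Card9-/- against WT, Ms4a6b (log2 fold change -0.79 ± 0.30 SE) and Ms4a4b (-1.19 ± 0.53), and 1 in Card9-/-5xFAD against 5xFAD, again Ms4a4b (-1.26 ± 0.55), beside 4.11% and 2.52% of all genes. Without the 4 libraries of low microglia marker level these counts were 1 and 0, beside 6.21% and 3.83% of all genes. Ms4a4a (-0.62 ± 0.28) then had such a p in Card9-/- against WT, where Ms4a6b was at -0.58 ± 0.29 and Ms4a4b at -1.09 ± 0.52, and Ms4a4b was at -0.85 ± 0.55 in Card9-/-5xFAD against 5xFAD. No member had groups that did not overlap, beside 2.66% and 1.89% of all genes.

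Averaged over transgene status, 7 of 7 members were again lower in value under the deletion label, beside 37.6% of all genes, with 0 of 7 called by edgeR or DESeq2 where edgeR called 0.0276% of all genes (4 genes) and DESeq2 53 genes. Ms4a4b had the largest difference of the 7, at -1.23 ± 0.38 SE on the log2 scale, a level of 0.428 (95% interval 0.245 to 0.748) of that in the Card9-intact libraries, with an adjusted p of 0.496 by edgeR's quasi-likelihood test with Benjamini-Hochberg adjustment. Ms4a4c (-0.72 ± 0.32) and Ms4a6b (-0.56 ± 0.21) also had an unadjusted p under 0.05, which makes 3 of 7 beside 9.12% of all genes. The values were -0.65 ± 0.32 for Ms4a6d, -0.64 ± 0.34 for Ms4a6c, -0.41 ± 0.28 for Ms4a4a and -0.26 ± 0.31 for Ms4a7. The direction was the same for all 7 in each of 23 alternatives, size factors and unscaled library totals among them. Without the 4 libraries of low microglia marker level the median over the members was -0.47, against 0.04 for all genes, with 4 of 7 at an unadjusted p under 0.05, beside 13.8% of all genes. Of the 7 none was called, beside 0.0209% of all genes by edgeR. Ms4a4c was then at -0.34 ± 0.31.

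The Ms4a4b values moved with T and NK cell markers. Of 11 such markers 7 passed the filter, all 7 had lower values in the averaged Card9 contrast, 3 with an unadjusted p under 0.05, and none was called (lowest adjusted p 0.162, edgeR's quasi-likelihood test with Benjamini-Hochberg adjustment). Their summed level was 56.5 to 385 CPM in WT and 41.4 to 203 in 5xFAD, against 56.6 to 69.4 in Card9-/- and 31.0 to 63.3 in Card9-/-5xFAD. The defining genes Cd3e, Cd3g, Trac and Cd8a were at 0 in at least 1 library. Monocyte markers also had lower values in the averaged Card9 contrast, in 6 of 8 tested, with a median of -0.72 on the log2 scale, 3 at an unadjusted p under 0.05 and none called. Their summed level was 188 to 417 CPM in WT and 107 to 241 in 5xFAD, against 151 to 289 in Card9-/- and 78.0 to 224 in Card9-/-5xFAD, and Vcan was at 0 in at least 1 library. Other lists went either way in this contrast, with none of their genes called. Values were lower for 7 of 10 microglia markers (median -0.23), 3 of 3 tested B cell markers (-0.16) and the 1 tested mast cell marker (-1.23). They were higher for 6 of 10 border-associated macrophage markers (median 0.36), 6 of 8 neutrophil markers (0.19) and 4 of 6 tested dendritic cell markers (0.13). The part of T and NK cells in the Ms4a4b difference, and of monocytes in those of the members known from monocytes, Ms4a6c and Ms4a4c, was not tested.

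**Figure D3:**
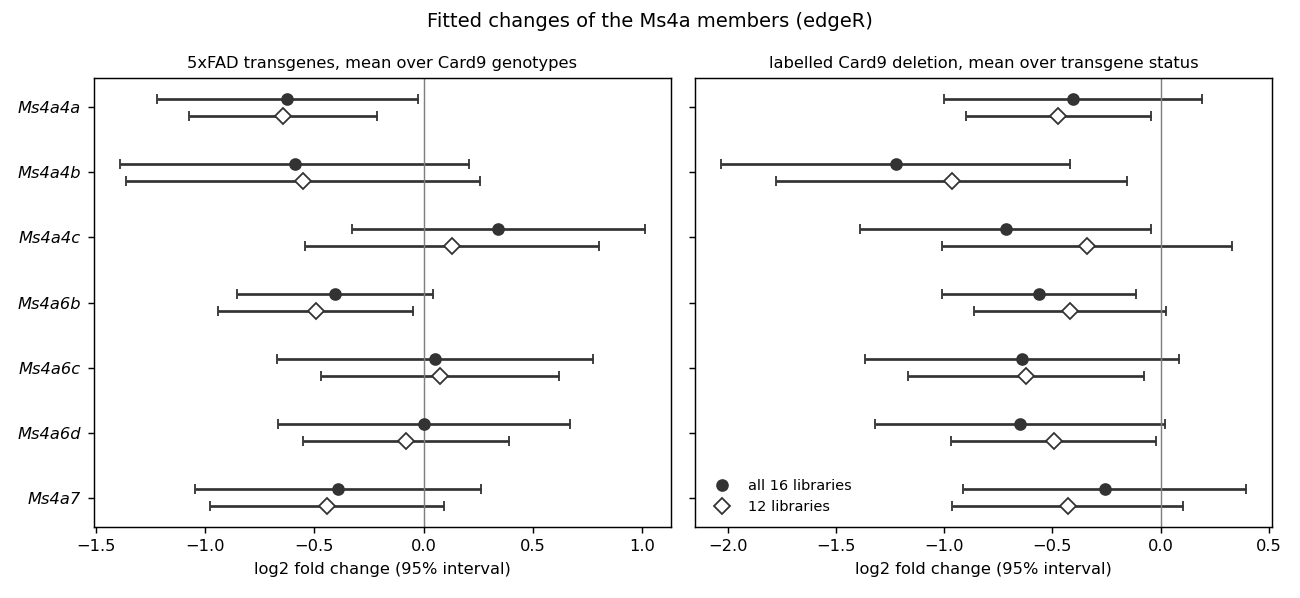
Fitted log2 fold changes with 95% intervals of the 7 members, for the transgenes averaged over Card9 label (left) and for the Card9 deletion label averaged over transgene status (right). Filled circles use all 16 libraries and white diamonds the 12 of higher microglia marker level: on the right all 7 estimates lie below 0 in both, from -1.23 for Ms4a4b to -0.26 for Ms4a7 with 16 libraries.

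The interaction, which asks whether the transgene response differed between Card9 labels, called 0 of 7 members by edgeR or DESeq2, and 0 of 7 had an unadjusted p under 0.05. Over all genes edgeR called 0%, DESeq2 1 gene, and 78 genes had an unadjusted edgeR p under 0.05. The differences between the responses ran from -0.18 ± 0.63 SE for Ms4a4c to 0.63 ± 0.68 for Ms4a6c on the log2 scale. The 95% intervals of all 7 members included 0 and also reached 1.27 or more in 1 direction, so sizeable differences were neither found nor excluded with 4 libraries a group.

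The members went in opposite directions in the 4 libraries set apart above and mostly together in the other 12. In the 4 libraries of low microglia marker level, Ms4a6c and Ms4a7 were the highest of their genotype in 4 of 4 genotypes, Ms4a4a the lowest in 4 of 4 and Ms4a6d the lowest in 3 of 4. Ms4a6c was at 128 to 301 CPM there and at 47.8 to 135 in the other 12 libraries, and Ms4a7 at 200.5 to 301 against 50.3 to 192. Ms4a4a was at 27.2 to 51.0 CPM there and at 40.0 to 124 elsewhere. The ranges of Ms4a7 in the 4 and the 12 did not overlap, and those of Ms4a6c and Ms4a4a did. Among the 12, with 3 libraries of each genotype, Card9-/- replicate 3 was the highest of its genotype for 7 of 7 members and replicate 2 the lowest for 7 of 7. In the same way 5xFAD replicate 4 was the lowest for 7 of 7, WT replicate 4 for 6 of 7, and Card9-/-5xFAD replicate 3 was the highest for 6 of 7, all but Ms4a4c.

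A ratio within a library needs no scaling. Ms4a6d had 2.18 to 3.48 times the counts of Ms4a6c in each of the 12 libraries, and 0.319 to 1.41 times in the 4. Against Ms4a7 the same ratio for Ms4a6d was 1.43 to 3.33 in the 12 and 0.259 to 1.50 in the 4. The Ms4a6d to Ms4a6c ratio thus separated the 4 from the 12, and the Ms4a6d to Ms4a7 ratio overlapped through 5xFAD replicate 1. Ms4a4a had 0.555 to 1.30 times the counts of Ms4a6c in the 12 libraries and 0.0987 to 0.399 times in the 4.

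Marker sums of other cell types differed in the same 4 libraries, some being higher and some lower. The neutrophil marker sum was 2101.9 to 6316.8 CPM there and 490.2 to 2395.3 in the 12. The interferon-induced sum was 1578.1 to 3470.5 CPM against 328.5 to 1441.8. The 9 monocyte markers summed to 224 to 417 CPM against 78.0 to 351, and the border-associated macrophage markers to 768 to 1960.8 against 603 to 1637.3. T and NK cell markers summed to 63.3 to 385 CPM against 31.0 to 217. Lower in the 4 were the B cell marker sum, at 392 to 471 CPM against 603 to 1149.9, and the dendritic cell marker sum, at 62.5 to 84.4 against 74.3 to 276. Of these sums, only those of interferon-induced genes and of B cell markers had ranges that did not overlap. The depth of the 4 was 2970148 to 7188423 counts, against 6081583 to 19333325. These libraries were set apart by the marker sum, after the values had been seen, so the differences are a description without a test, and the part of other cells, of interferon exposure or of depth was not tested.

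**Figure D4:**
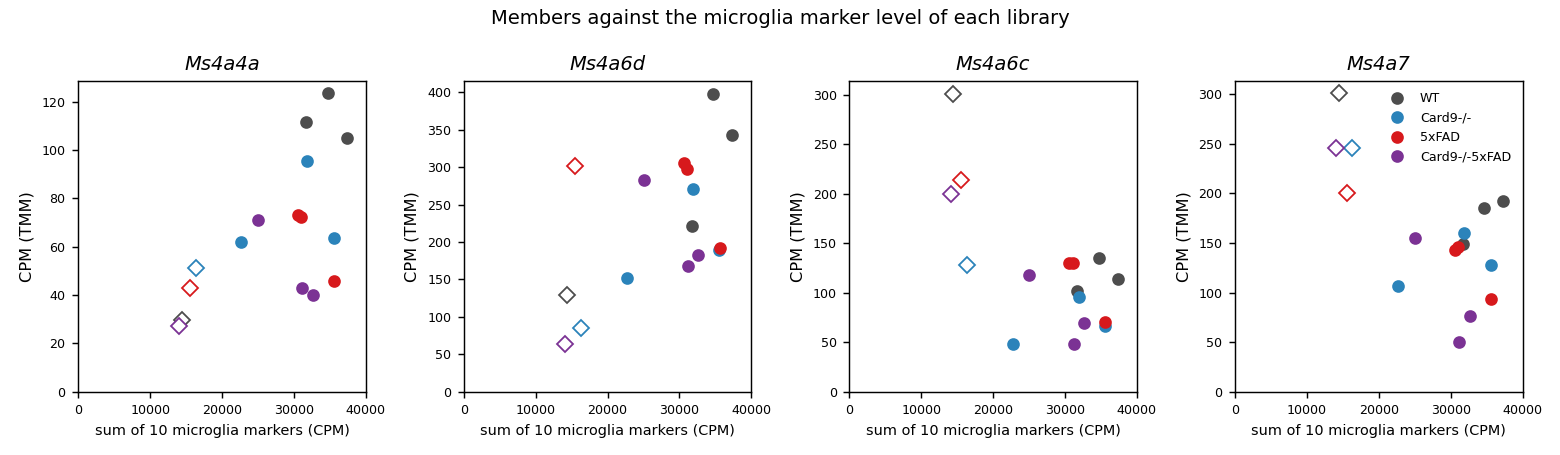
CPM of Ms4a4a, Ms4a6d, Ms4a6c and Ms4a7 against the summed CPM of 10 microglia markers in each of the 16 libraries, coloured by genotype. The 4 libraries below 16340.9 CPM or at it (white diamonds) hold low Ms4a4a (27.2 to 51.0) and high Ms4a7 (200.5 to 301).

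Over all 16 libraries the pair with the most alike pattern was Ms4a6c and Ms4a7, whose log2 CPM values, centred on each gene's mean, differed by 0.31 on average. The least alike pair was Ms4a6c and Ms4a6d, at 0.82. For each member the 3 tested genes with the smallest such difference over the 16 libraries were listed. For Ms4a4b these were Klra7 and Klre1, NK cell receptors, and Gzma, a cytotoxic granule protease, at 0.30 to 0.34. For Ms4a4a they were BC035044, Pla2g7, a lipoprotein-associated phospholipase, and Fcgrt, the neonatal Fc receptor, at 0.19 to 0.21. For Ms4a6b they were Ecscr, Clec4a2, an inhibitory lectin of myeloid cells, and Pnp2, at 0.17 to 0.21. The values were 0.16 to 0.18 for Ms4a6d with Cd79b, Haus7 and Brix1, and 0.17 to 0.19 for Ms4a6c with Znrd1as, Mrpl47 and Ccdc12. They were 0.21 to 0.22 for Ms4a7 with Rnpc3, Garnl3 and Gpatch11, and 0.28 to 0.29 for Ms4a4c with Psma5, Spag7 and Gm12989. The median over all genes was 0.68 to 0.97, depending on the member. These are descriptions over libraries that differ in genotype and depth, and the part of either in the alike patterns was not tested.

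The other genes of the family were mostly below the filter in these cells. Of 13 further genes, 11 of the 12 other Ms4a genes of the cluster (Ms4a12 was not on the list) and the related pair Tmem176a and Tmem176b, 4 passed the filter and 3 were at 0 in every library. In the averaged transgene contrast 2 of the 4 were called higher, Tmem176a (0.87 ± 0.25 SE, adjusted p = 0.0474) and Tmem176b (0.75 ± 0.22, adjusted p = 0.0547), and 1 lower, Ms4a14 (-1.09 ± 0.30, adjusted p = 0.0391), by edgeR's quasi-likelihood test with Benjamini-Hochberg adjustment, beside 11.3% of all genes. Ms4a14, the gene next to Ms4a7, was low throughout, at 1.26 to 6.78 CPM. The fourth, Ms4a3, a gene of granulocyte and monocyte precursors, had a value of -0.79 ± 0.75.

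Of 7 genes known to act with MS4A proteins or to cut TREM2, all tested, 2 were called higher in both transgene contrasts and in their average. Of all tested genes, edgeR called 2.09% in 5xFAD against WT, 1.97% in Card9-/-5xFAD against Card9-/- and 11.3% in the average, in either direction. Clec7a, which encodes Dectin-1, had the averaged log2 fold change 3.34 ± 0.26 SE (adjusted p = 7.92e-07), with 53.7 to 92.3 CPM in WT and 592 to 883 in 5xFAD. Trem2, the microglial lipid receptor, was at 1.40 ± 0.22 (adjusted p = 9.47e-04, edgeR's quasi-likelihood test with Benjamini-Hochberg adjustment for both). Its level was 1352.2 to 1791.9 CPM in WT and 2756.2 to 5229.1 in 5xFAD. Neither was called in a Card9 contrast, and of the 7 Ms4a members none was called in the contrasts in which both of these rose.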

How the data were processed

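The authors aligned the reads to mm10 with HISAT2, filtered them with SAMtools and counted reads per gene with HTSeq, and the deposited table holds these raw counts of 55385 genes in 16 libraries. The annotation and the strand setting are not given in the sources used here. Column names gave each library its genotype and replicate number. The counts were scaled by TMM and tested by edgeR 4.0.16 (limma 3.58.1, R 4.3.3), with genes kept by filterByExpr (minimum count 10), 1 quasi-likelihood fit of 4 group means over all 16 libraries, 7 contrasts, and an adjusted p under 0.1 (Benjamini-Hochberg) over all 14513 tested genes. DESeq2 1.42.0 was an alternative. CPM are TMM-scaled, and log2 CPM used a prior count of 2. The fits were tested on simulated counts. The smallest chi-square per degree of freedom between libraries of a genotype was 6.28, so none was a copy. Positions and lengths are from GENCODE M21 (GRCm38).

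All 7 members are named, with Card9, the genes of the related lists that were called, and the 3 genes nearest to each member. Marker genes were counted as lists, and those named singly were chosen after their values were seen. The members and lists were chosen with earlier results of these data known. Removal of the 4 libraries of low microglia marker level and the use of unscaled library totals were chosen after seeing the data.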

Additional observations from a re-analysis of the deposited data

Results flagged for a closer look

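In 28 groups of 4 libraries (7 members in 4 genotypes), 3 single values stood apart from the other 3 of their group by Dixon's test, which chance alone would give in about 1 of 20 groups. Ms4a6c in WT replicate 1 was at 301 CPM, against 102 to 135 in the other WT libraries, and this is a library of low microglia marker level. Ms4a4c in Card9-/- replicate 3 was at 34.2 CPM, against 8.18 to 11.8 in the other libraries of that label. Ms4a6d in 5xFAD replicate 4 was at 192 CPM, against 298 to 306 in the other 5xFAD libraries.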

How the results depend on the processing

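The count of members called was 0 of 7 in each of 7 contrasts and stayed so in 173 of 176 recomputed counts. These include the stricter threshold of 0.05 on the same fit, where the count could only stay at 0 and the fold changes are the same by construction. The other 3 were in the averaged transgene contrast, with 2 called without the 4 libraries of low microglia marker level and 2 with unscaled library totals, and leaving out 1 library at a time gave 0 to 1 (1 without WT replicate 1). Of 1232 recomputed member log2 fold changes 78 changed sign, 57 of them on leaving out 1 library, and none was past the threshold. Most were of Ms4a6d, whose transgene values lay near 0. In Card9-/-5xFAD against Card9-/-, Ms4a6d went to 0.0874 with size factors, 0.18 with a floor of 10 counts a library, 0.0807 and 0.0924 with DESeq2 on all or on the compared groups, 0.0193 with edgeR on the compared groups and 0.0749 without the 4 libraries. Its interaction went to 0.0156, 0.0386, 0.0208 and 0.31 with size factors, the stricter filter, DESeq2 and without the 4 libraries. Its averaged transgene value went to -0.0063 with no filter, -0.082 without the 4 libraries and -0.23 with unscaled totals, and in 5xFAD against WT it went to -0.24 and -0.22 under the last pair. Without the 4 libraries the interaction went to 0.24 for Ms4a4b, 0.11 for Ms4a4c and -0.0356 for Ms4a7, and with unscaled totals the averaged transgene value of Ms4a6c went to -0.18. The causes were not tested.

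Same-numbered libraries deviated from their group means with correlations from -0.71 to 0.73 (median 0.14) and 5 of 16 libraries correlated best with their own number, so the numbers were not taken to pair libraries. With the replicate block, 0 of 7 members were called in each contrast, and 2 values changed sign, to 0.0495 for the Ms4a4c interaction and -0.0042 for the averaged transgene value of Ms4a6d.

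Leaving out 1 library, the range was -0.55 to 0.22 for Ms4a6c and -0.23 to 0.28 for Ms4a6d in 5xFAD against WT. In Card9-/-5xFAD against Card9-/- it was -0.35 to 0.0597 for Ms4a6b, -0.0951 to 0.63 for Ms4a6c and -0.34 to 0.29 for Ms4a6d. In Card9-/-5xFAD against 5xFAD it was -0.63 to 0.11 for Ms4a7. In the interaction it was -0.22 to 0.37 for Ms4a4a, -0.40 to 0.40 for Ms4a4b, -0.46 to 0.51 for Ms4a4c, -0.34 to 0.29 for Ms4a6d and -0.26 to 0.50 for Ms4a7, and in the averaged transgene contrast -0.18 to 0.32 for Ms4a6c and -0.17 to 0.23 for Ms4a6d.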
